A study of Mus musculus with 14 samples.

Results

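The genes described here flank the Argonaute cluster on mouse chromosome 4, where Ago3, Ago1 and Ago4 lie side by side. They are all genes in the deposited tables that lie wholly between positions 121300000 and 131600000 (GRCm38) and had at least 10 reads summed over the 14 libraries. Ago1, Ago3, Ago4 and Hdac1 were left out. Of the 22598 genes in each table, 135 lay in this stretch of 10.3 Mb. Of these, 38 had fewer than 10 reads, 22 of them with 0 reads, and 4 were the genes left out by name. The remaining 93 genes, all protein coding, form the set, with 39 below the cluster (lower coordinates) and 54 above it. Just under the read minimum were Tmem54 and Fndc5 with 5 reads each, Tekt2 with 8 and Adgrb2 with 9. Just over it were Col8a2 with 10 reads, Gja4 and Gm10570 with 11 each and A3galt2 with 12. A filter on low counts passed 84 of the 93 genes to the tests. Col8a2, Gja4, A3galt2, Sync, Zbtb8b, Fam167b, Tinagl1, Serinc2 and Gm10570 were not tested.

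RNA was sequenced from naive CD4+ T cells of the mouse spleen that had been activated and polarized in culture towards Th2 cells, the helper cells of allergic and antiparasite responses. The groups were knockout cells at day 7 (n = 4), wild-type cells at day 7 (n = 4), knockout cells at day 14 (n = 3) and wild-type cells at day 14 (n = 3). All libraries carry the strain label C57BL/6J, and the genotype label Ago134 stands for the loss of Ago1, Ago3 and Ago4 together. The series text calls wild-type and knockout mice littermates. Neither the deleted segments, nor the strain in which they were made, nor the number of mice behind a group is given in the sources used here. Libraries of a group may share a mouse or a culture, so the p-values cover the spread between these libraries alone, and that spread may be technical.

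Argonaute proteins are loaded with microRNAs and guide them to messenger RNAs, whose translation and stability they reduce. The cluster holds 3 of the 4 mouse Argonaute genes, while Ago2, the one that cuts its targets, lies on another chromosome. Genes close to a targeted locus are inherited together with it. A knockout animal can therefore carry, around the locus, chromosome sequence from the cells in which the deletion was made, and neighbouring genes can also share regulatory sequence with the deleted segment. Whether either applies here was not tested. The genes of this stretch serve many different functions, from T cell signalling (Lck) and splicing (Sf3a3) to energy metabolism (Ndufs5).

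To show the start regions of the genes that separated the genotypes at day 7, the 250 bases before the RefSeq start of Cap1, Ndufs5 and Zbtb8a are given from RefSeq (GRCm38.p6), 5′ to 3′ on the strand of the gene. All 3 genes lie on the minus strand of chromosome 4, at chr4:122886077-122886326 for Cap1, chr4:123718187-123718436 for Ndufs5 and chr4:129378029-129378278 for Zbtb8a. Capitals mark matches on either strand to the GC box (GGGCGG or CCGCCC), the CCAAT box (CCAAT or ATTGG) and the TATA box (TATAAA or TTTATA), and no match overlapped another in these 3 windows.
Cap1: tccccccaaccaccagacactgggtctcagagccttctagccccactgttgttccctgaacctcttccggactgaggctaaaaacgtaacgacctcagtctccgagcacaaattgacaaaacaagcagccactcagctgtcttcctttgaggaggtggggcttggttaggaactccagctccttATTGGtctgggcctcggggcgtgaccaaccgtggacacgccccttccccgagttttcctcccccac
Ndufs5: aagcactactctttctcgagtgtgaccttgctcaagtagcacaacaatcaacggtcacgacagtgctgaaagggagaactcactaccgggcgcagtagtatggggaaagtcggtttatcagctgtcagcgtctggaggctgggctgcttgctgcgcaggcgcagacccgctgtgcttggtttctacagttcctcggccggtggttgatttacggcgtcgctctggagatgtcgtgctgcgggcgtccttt
Zbtb8a: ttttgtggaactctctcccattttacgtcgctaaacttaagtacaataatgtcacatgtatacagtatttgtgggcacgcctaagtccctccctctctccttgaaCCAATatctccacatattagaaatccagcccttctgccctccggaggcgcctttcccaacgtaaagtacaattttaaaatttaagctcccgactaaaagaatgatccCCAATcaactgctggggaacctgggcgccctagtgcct
Cap1 held 1 CCAAT match on the reverse strand, Zbtb8a 2 CCAAT matches, and Ndufs5 no match to any of the 3 motifs. The GC content of these stretches was 57.2% for Cap1, 56.4% for Ndufs5 and 45.6% for Zbtb8a. Of all 32851 RefSeq promoters in the table, 32.7% held the GC box, 33.8% the CCAAT box and 12.4% the TATA box. Among the 92 promoters listed for 75 of the 93 genes, the shares were 51.1%, 37.0% and 6.52%. The median GC content was 60.8% over those 92 promoters and 52.4% over all. A match describes the letters of the window and shows no bound factor.

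Total counts ran from 23326248 to 35803197 per library, and 12534 to 13241 genes had a read. Ago1, the targeted gene whose loss can be read from the counts, had 0 reads in every knockout library of day 7, against 128 to 141 in wild type. At day 14 it had 0 to 2 reads in knockout libraries, against 67 to 100 in wild type. All 18 pairs of libraries of the same group differed by more than sampling noise. The third wild-type library of day 14 stood apart from the other 2, and its pairs had the highest chi-square per degree of freedom of all such pairs (405 and 475, against 20.8 for the closest pair). Without it 2640 genes instead of 165 were called at day 14, so the called genes and the main counts of that day are also given without it. T cell markers (6 of 6 genes with reads) summed to 5097 to 9292 CPM in knockout and 3761 to 5137 CPM in wild type at day 7. By day 14 they summed to 4823 to 6741 CPM in knockout and 4440 to 4962 CPM in wild type. Of 7 myeloid and dendritic markers, Itgam, Itgax and Flt3 were at 0 in every library. The others summed to 1.55 to 5.45 CPM in knockout against 0.807 to 2.22 CPM in wild type at day 7, and to 12.9 to 24.4 against 7.44 to 25.5 CPM at day 14. Of 4 mast cell and basophil markers, Mcpt8 and Mcpt4 were at 0. The others summed to 44.9 to 81.6 CPM in knockout against 28.6 to 62.0 CPM in wild type at day 7. Their day 14 sums were 12.9 to 120 CPM against 1.07 to 5.61 CPM, so the sum moved with genotype at the later day. Only 1 of these markers had reads in the later knockout libraries, while 2 had reads in the later wild-type libraries. The higher knockout sums of that day therefore come from 1 marker. The CD8 T cell markers Cd8a and Cd8b1 also stood apart by genotype, at 10.5 to 21.0 CPM in knockout against 6.67 to 10.2 CPM in wild type at day 7 and at 11.4 to 20.6 against 6.32 to 7.92 CPM at day 14. The part of these markers in the results below was not tested.

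At day 7, Cap1 was higher in knockout cells and Zbtb8a and Ndufs5 were lower. Levels are CPM, read counts relative to each library's total as scaled by the TMM method. Log2 fold changes are knockout over wild type, with their SE, from edgeR's quasi-likelihood test. A gene was called when its Benjamini-Hochberg adjusted p, taken over all 11591 genes tested, was under 0.05. By that rule 3 of the 84 tested genes were called (3.57%), 1 higher and 2 lower, against 0.0949% of all genes tested (0.0518% higher and 0.0431% lower). Elsewhere on chromosome 4, 0 of 633 tested genes were called by edgeR at day 7 (163 at an unadjusted p under 0.05), and on the other chromosomes 6 of 10870 were called (0.0552%).

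Cap1 (ENSMUSG00000028656, GRCm38 chromosome 4, 122859047 to 122886056, minus strand) encodes an adenylyl cyclase-associated protein that speeds the turnover of actin filaments. Its level was 342, 322, 292 and 243 CPM in the knockout libraries of day 7, against 74.0, 69.4, 67.3 and 56.0 CPM in the wild-type libraries. Every knockout library lay above every wild-type library by a wide gap. The means were 299.8 ± 43.1 and 66.7 ± 7.67 CPM (SD, n = 4 each), a log2 fold change of 2.17 ± 0.23 (edgeR adjusted p = 0.00055), or 4.50-fold. At day 14 the knockout libraries had 234, 556 and 339 CPM and the wild-type libraries 59.1, 75.7 and 72.8 CPM. The groups again did not overlap, and the knockout libraries differed more among themselves than at day 7. The means were 376 ± 164 and 69.2 ± 8.88 CPM (SD, n = 3 each), a log2 fold change of 2.44 ± 0.27 (edgeR adjusted p = 0.00128), or 5.44-fold. Without the third wild-type library it was 2.48 ± 0.32 (edgeR adjusted p = 0.000813). Within the series of run identifiers that holds all knockout libraries of a day, it was 2.22 ± 0.27 at day 7 and 2.51 ± 0.33 at day 14 (edgeR adjusted p = 0.00301 and 0.00544). These series were inferred from the names of the deposited tables (given below). In bulk samples such as these, fewer cells of a type and less RNA per cell cannot be told apart.

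Zbtb8a (ENSMUSG00000028807, 129353628 to 129378116, minus strand) encodes a zinc finger protein with a BTB domain. In the knockout libraries of day 7 it had 3, 4, 5 and 11 reads, which is 0.129, 0.135, 0.157 and 0.487 CPM. The wild-type libraries had 260, 165, 202 and 154 reads, or 7.24, 5.37, 6.45 and 6.44 CPM. All knockout libraries were far below all wild-type libraries, and knockout library 4 was the highest of its group. The means were 0.227 ± 0.174 and 6.37 ± 0.768 CPM (SD, n = 4 each), a log2 fold change of -4.83 ± 0.51 (edgeR adjusted p = 0.000528). Without knockout library 4 it was -5.44 ± 0.51 (edgeR adjusted p = 0.000905), and within 1 series of runs -4.76 ± 0.54 (edgeR adjusted p = 0.00181). At day 14 the knockout libraries had 65, 115 and 240 reads (1.92, 3.79 and 7.24 CPM) and the wild-type libraries 155, 187 and 291 reads (5.76, 6.25 and 8.99 CPM). The groups now overlapped, and the log2 fold change of -0.70 ± 0.47 did not pass the test (edgeR adjusted p = 0.394), nor did the -0.48 ± 0.49 without the third wild-type library (edgeR adjusted p = 0.508).

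Ndufs5 (ENSMUSG00000028648, 123712710 to 123718202, minus strand) encodes an accessory subunit of complex I, the first enzyme of the mitochondrial respiratory chain. The knockout libraries of day 7 had 4, 14, 14 and 25 reads, against 140, 85, 100 and 99 in wild type. In CPM these were 0.172, 0.473, 0.439 and 1.11 in knockout and 3.90, 2.77, 3.19 and 4.14 in wild type, without overlap. The log2 fold change was -2.68 ± 0.43 (edgeR adjusted p = 0.0249, with the highest value over the alternatives at 0.178). The call was lost in 7 of the 8 fits that left out a library of day 7, with a term for the run series (edgeR adjusted p = 0.0609) and when only day 7 libraries were fitted. Within 1 series of runs the value was -2.62 ± 0.47 (edgeR adjusted p = 0.107). At day 14 the knockout libraries had 17, 14 and 28 reads (0.502, 0.461 and 0.845 CPM) and the wild-type libraries 126, 153 and 125 reads (4.68, 5.11 and 3.86 CPM). Again each knockout library lay below each wild-type library, and the log2 fold change was -2.91 ± 0.50 (edgeR adjusted p = 0.0116). Without the third wild-type library it was -3.01 ± 0.51 (edgeR adjusted p = 0.00301). A processed pseudogene, BC002163 on chromosome 16, matches the coding sequence of Ndufs5 at 99.4% identity over its whole length. The level of Ndufs5 is therefore uncertain, since the sources used here do not say how reads that match both were counted.

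Ccdc28b (ENSMUSG00000028795, 129619274 to 129623947, minus strand) encodes a coiled-coil protein known as a modifier of the ciliary disorder Bardet-Biedl syndrome in humans. The knockout libraries of day 7 had 22.2, 19.8, 27.3 and 42.6 CPM and the wild-type libraries 8.99, 8.59, 11.4 and 11.3 CPM. At day 14 the knockout libraries had 32.3, 22.3 and 32.4 CPM and the wild-type libraries 16.1, 18.6 and 11.3 CPM. The groups did not overlap at either day, yet the log2 fold changes of 1.47 ± 0.27 and 0.92 ± 0.31 missed the threshold (edgeR adjusted p = 0.0677 and 0.123), as did the 0.74 ± 0.32 of day 14 without the third wild-type library (edgeR adjusted p = 0.107). DESeq2 called Ccdc28b at both days, and so did edgeR once each library's trend over GC content and coding length was removed.

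**Figure D1:**
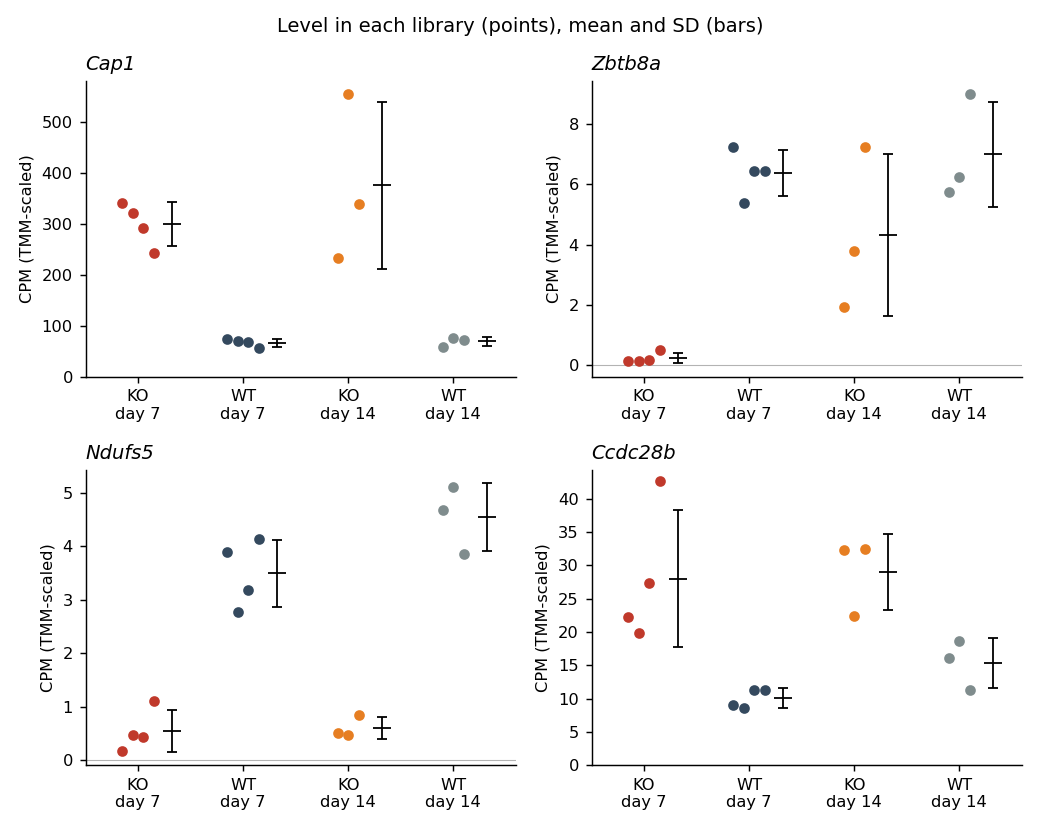
Level of Cap1, Zbtb8a, Ndufs5 and Ccdc28b in CPM (vertical axis, linear) in each of the 14 libraries, with the group mean and SD as bars (n = 4 per group at day 7, n = 3 at day 14). Knockout libraries of Cap1 sit at 234 CPM or more and its wild-type libraries at 75.7 CPM or less, while the knockout libraries of Zbtb8a lie at 0.487 CPM or less at day 7 and reach 7.24 CPM at day 14.

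Counting the 3 called genes, the libraries of the genotypes did not overlap at day 7 for 27 of the 84 tested genes (32.1%, against 22.2% of all genes tested), 14 higher and 13 lower in knockout (9.27% and 12.9% of all genes). An unadjusted p under 0.05 was found for 25 of the 84 (29.8%, against 23.4% of all). The median log2 fold change was -0.02, against -0.01 over all genes, and the median size of the change without its sign was 0.44 against 0.39. A change of more than 1 log2 unit was seen for 14 genes (16.7%), against 11.9% of all genes. After Cap1 and Ccdc28b, the genes of at least 5 CPM with the highest log2 fold changes were Lsm10, part of the U7 particle that trims histone messages (0.80 ± 0.25), Eva1b (0.76 ± 0.22), Tmem234 (0.68 ± 0.21) and Psmb2, a proteasome subunit (0.63 ± 0.24). The genes of that level with the lowest values were Zmym6 (-1.42 ± 0.53) and Zmym4 (-1.37 ± 0.53), both zinc finger genes, Tmem39b (-0.93 ± 0.25), AU040320 (-0.90 ± 0.33), Txlna (-0.79 ± 0.29) and Ncdn (-0.76 ± 0.33). None of these 10 passed edgeR's test at day 7 (adjusted p from 0.154 to 0.196), and all of them held an unadjusted p under 0.05. DESeq2 called Lsm10, Eva1b, Tmem234 and Tmem39b of them. Once each library's trend over GC content and coding length was taken out, Lsm10 was at 0.22, Eva1b at 0.40, Tmem234 at 0.22, Psmb2 at 0.19, Zmym6 at -0.71, Zmym4 at -0.54, AU040320 at -0.35 and Ncdn at -0.41, while Tmem39b (-0.88) and Txlna (-0.68) moved by less than 1.5 times.

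At day 14, Cap1 was again higher in knockout and 5 genes were lower, namely Ndufs5, Azin2, Rnf19b, Tmem35b and Dcdc2b. These 6 of 84 tested genes (7.14%) compare with 1.42% of all genes tested (0.845% higher and 0.578% lower), 1.74% elsewhere on chromosome 4 (11 of 633) and 1.34% on the other chromosomes (146 of 10870). Without the third wild-type library, 22 of 85 tested genes were called (25.9%), 10 higher and 12 lower, against 22.5% of all genes. All 6 were among the 22. When only the 6 libraries of day 14 were fitted, 0 genes were called by edgeR, among these genes as well as among all 11238 tested, while 10 of the 80 held an unadjusted p under 0.05. DESeq2 on all libraries called 13 (15.5%, against 8.60% of all genes).

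Azin2 (ENSMUSG00000028789, 128930233 to 128962442, minus strand) encodes an antizyme inhibitor, which raises polyamine synthesis by releasing ornithine decarboxylase. The knockout libraries of day 14 had 3.37, 14.8 and 15.5 CPM and the wild-type libraries 47.4, 65.3 and 70.7 CPM. All knockout libraries were well below wild type, the first the furthest. The log2 fold change was -2.45 ± 0.46 (edgeR adjusted p = 0.0203), and without the third wild-type library -2.33 ± 0.49 (edgeR adjusted p = 0.00806). Within 1 series of runs it was -2.40 ± 0.50 and missed the threshold (edgeR adjusted p = 0.0542), as it did without the third knockout library (-2.75 ± 0.54, edgeR adjusted p = 0.0538). At day 7 Azin2 lay at 0.731 to 1.24 CPM in knockout and 1.00 to 2.21 CPM in wild type, with overlap (-0.65 ± 0.42, edgeR adjusted p = 0.357).

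Rnf19b (ENSMUSG00000028793, 129058271 to 129085886, plus strand) encodes a ubiquitin ligase known from natural killer cells and macrophages. It had 159, 344 and 247 CPM in the knockout libraries of day 14, against 618, 789 and 626 CPM in the wild-type libraries. The groups did not overlap, with a log2 fold change of -1.44 ± 0.25 (edgeR adjusted p = 0.0125). The value was -1.49 ± 0.27 without the third wild-type library (edgeR adjusted p = 0.00409), -1.32 ± 0.27 within 1 series of runs (edgeR adjusted p = 0.0542) and -1.43 ± 0.30 without the third knockout library (edgeR adjusted p = 0.0700). At day 7 it lay at 92.6 to 143 CPM in knockout and 117 to 142 CPM in wild type (-0.11 ± 0.21, edgeR adjusted p = 0.791).

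Tmem35b (ENSMUSG00000070737, 127123691 to 127129644, plus strand), which encodes a membrane protein, had 6.23, 5.64 and 7.36 CPM in knockout at day 14, against 19.3, 21.5 and 13.5 CPM in wild type. Again each knockout library was lower than each wild-type library (-1.50 ± 0.30, edgeR adjusted p = 0.0268, up to 0.306 over the alternatives). Without the third wild-type library it was -1.67 ± 0.30 (edgeR adjusted p = 0.00361), and within 1 series of runs -1.36 ± 0.33 (edgeR adjusted p = 0.0837). At day 7 its groups overlapped, at 5.95 to 10.2 CPM in knockout and 5.07 to 8.30 CPM in wild type (0.25 ± 0.26, edgeR adjusted p = 0.567).

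Dcdc2b (ENSMUSG00000078552, 129608331 to 129614257, minus strand), which encodes a protein with doublecortin domains, bound to microtubules in other members of that family, had 0 reads in all 3 knockout libraries of day 14 and 43 reads over the 3 wild-type libraries. Knockout was at least 15.6-fold lower, with 3 counts over the group set in place of its 0, a bound that covers counting error only (edgeR adjusted p = 0.00823, at most 0.0365 over the alternatives and 0.00278 without the third wild-type library). At day 7 the knockout libraries had 10 reads in all, at 0.0430 to 0.125 CPM, and the wild-type libraries 85 reads, at 0.473 to 1.02 CPM. The groups did not overlap, but the difference of -2.90 ± 0.55 missed the threshold (edgeR adjusted p = 0.130). The gene was rare in every group, under 1.1 CPM in each library.

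**Figure D2:**
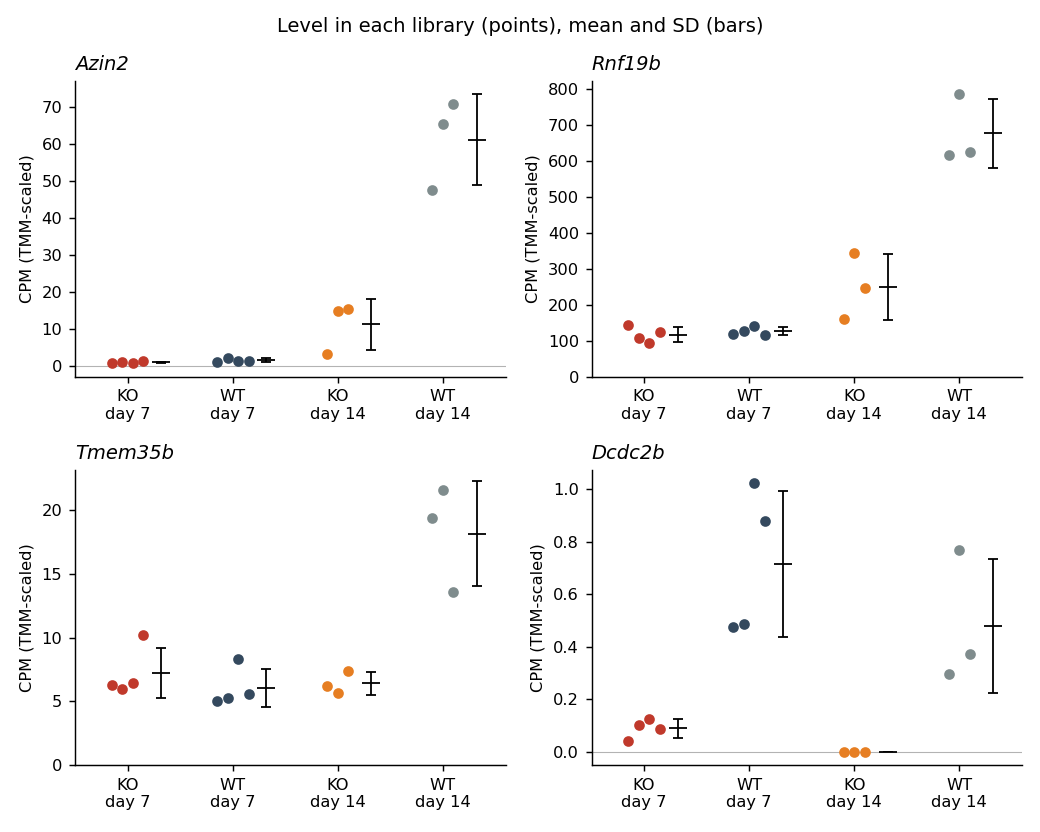
Level of Azin2, Rnf19b, Tmem35b and Dcdc2b in CPM (vertical axis, linear) in each of the 14 libraries, with the group mean and SD as bars (n = 4 per group at day 7, n = 3 at day 14). Azin2 and Rnf19b overlap between genotypes at day 7 and separate at day 14, and Dcdc2b is at 0 in the 3 knockout libraries of day 14.

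Over the 84 tested genes, the libraries of day 14 did not overlap for 19 (22.6%, against 15.0% of all genes), 11 higher and 8 lower in knockout (9.71% and 5.25% of all genes). An unadjusted p under 0.05 was found for 28 (33.3%, against 21.7% of all). With wild-type library 3 of that day left out, 41 of 85 did not overlap (48.2%, against 47.1% of all genes). The median log2 fold change of the tested members was 0.14, against 0.01 over all genes, and without that library 0.16, against 0.13. It was 0.04 in the fit of the 6 libraries of day 14, 0.06 without the third knockout library and -0.02 with GC and length trends taken out. A change of more than 1 log2 unit was seen for 18 (21.4%, against 14.2%). After Cap1, the highest values at 5 CPM or more were those of Cdca8, the borealin subunit of the complex that guides chromosome segregation (2.05 ± 0.63, edgeR adjusted p = 0.0996), Ccdc28b (0.92 ± 0.31), Mrps15, a mitochondrial ribosomal protein gene (0.82 ± 0.23, edgeR adjusted p = 0.0775), Tmem234 (0.68 ± 0.24) and Trit1, which modifies transfer RNA (0.60 ± 0.31). Among the lowest were Zmym4 (-1.32 ± 0.62), Zmym6 (-0.995 ± 0.61) and Trim62 (-0.92 ± 0.39), none of them past the threshold (edgeR adjusted p = 0.229, 0.354 and 0.200). Without the third wild-type library Cdca8 (2.83 ± 0.67, edgeR adjusted p = 0.0129), Mrps15 (0.89 ± 0.25, edgeR adjusted p = 0.0257) and Trim62 (-1.28 ± 0.32, edgeR adjusted p = 0.0157) were called, and Zmym6 was at 0.05.

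The difference was then set out by position. The genes called at day 7 did not lie next to the cluster, which spans 201.8 kb from 126331704 to 126533472. Cap1 lay 3.45 Mb and Ndufs5 2.61 Mb below it, and Zbtb8a lay 2.82 Mb above it. Within 2 Mb of the cluster on either side, edgeR called 0 of 36 tested genes at day 7, where 6 were higher and 5 lower in knockout without overlap (30.6% together, against 22.2% of all genes) and 12 held an unadjusted p under 0.05 (33.3%, against 23.4%). Of the 22 tested genes within 1 Mb, 11 held such a p at day 7, against 23.4% of all genes. The libraries of the genotypes did not overlap for 40.9% of these 22 at that day, against 22.2% of all genes. The later day had 6 with such a p (27.3%, against 21.7% of all genes) and 13.6% without overlap (against 15.0%). At day 14, 1 of the 36 was called, Tmem35b at 0.59 Mb above the cluster. The others were Rnf19b at 2.52 Mb, Azin2 at 2.40 Mb and Dcdc2b at 3.07 Mb above it, and Cap1 and Ndufs5 below. Among the 48 tested genes at 2 Mb and over, 3 were called at day 7 and 5 at day 14 (against 0.0949% and 1.42% of all genes). The median log2 fold change within 1 Mb of the cluster was -0.26 at day 7 and -0.14 at day 14, and 0.03 at day 14 without the third wild-type library. Without that library edgeR called 7 of the 36 genes within 2 Mb (19.4%) and 15 of 49 at 2 Mb and over (30.6%), against 22.5% of all genes.

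The sides of the cluster differed in the sign of their medians. Below it, the 38 tested genes had a median log2 fold change of 0.13 at day 7 and 0.29 at day 14, and 28 of them were above 0 at day 14. Above it, the 46 tested genes had medians of -0.16 and -0.26, and 20 were above 0 at day 14. Without the third wild-type library the day 14 medians were 0.50 below and -0.23 above the cluster. The window with the lowest median at each day was that from 128.3 to 129.3 Mb, with 11 tested genes (-0.30 at day 7 and -0.62 at day 14, 9 of 11 below 0 at each day). Without that library its day 14 median was -0.83, and 6 of its 11 genes were called, all lower (54.5%, against 22.5% of all genes). At day 7 the next were the windows from 125.3 Mb, with 9 tested genes (-0.27, and 0.13 at day 14), and from 126.3 Mb, with 13 (-0.24, and -0.39 at day 14, where it was at 0.05 without that library). The window from 128.3 Mb holds Azin2 and Rnf19b. The window from 129.3 Mb, with 17 tested genes, had medians of 0.09 and 0.16 and the widest range at day 7, from -4.83 for Zbtb8a to 1.47 for Ccdc28b. In that window 6 of the 17 tested genes were higher and 6 lower without overlap at day 7 (against 9.27% and 12.9% of all genes). The members are not spread evenly, since the windows from 121.3 and 131.3 Mb hold none of them and the one from 127.3 Mb holds 1, Gja4, which was not tested. These medians are descriptions, and neighbouring genes differ in coding length, over which the genotypes differed too (given below). With each library's trend over GC content and coding length removed, they changed. The middle value of the window from 128.3 Mb was then -0.13 at day 7 (Zfp362) and -0.29 at day 14 (C77080). That of the window from 126.3 Mb was -0.21 (Tmem35b) and -0.07 (Zmym1). At day 7 the window from 128.3 Mb was thus not the lowest in that fit. The medians of the sides were not taken in it.

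**Figure D3:**
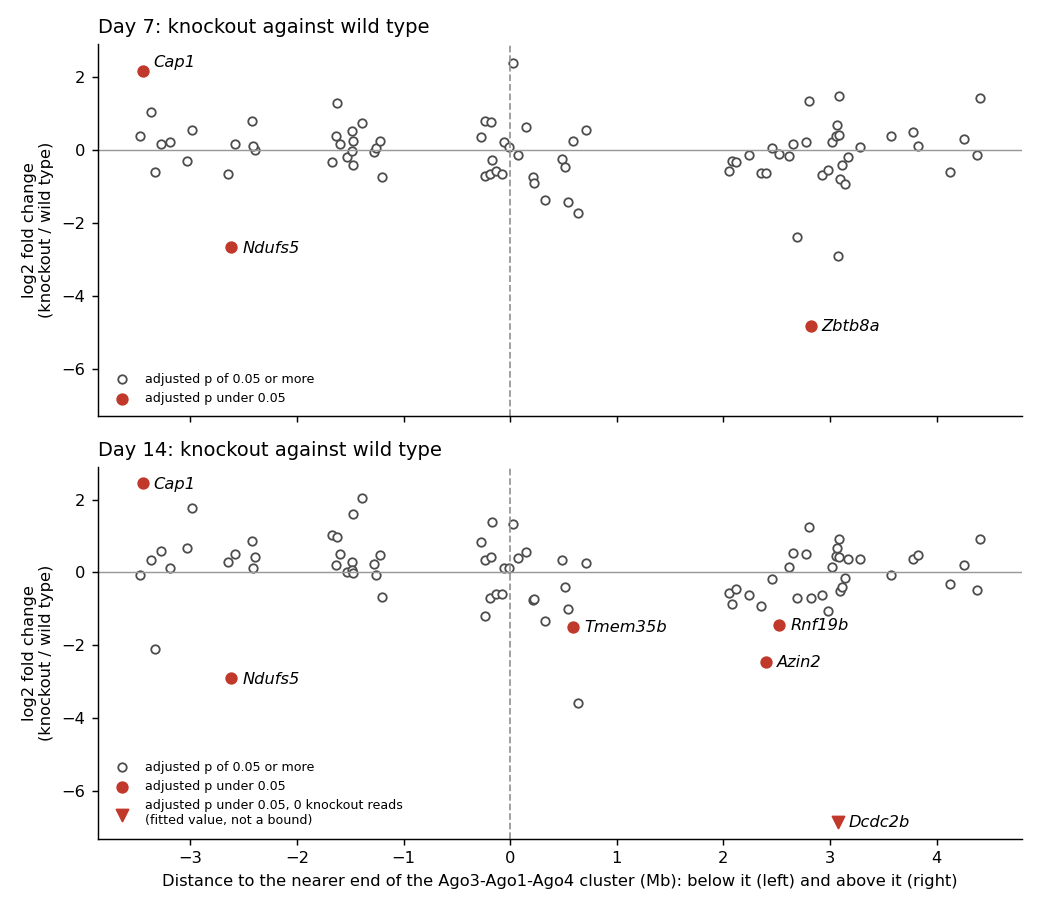
Log2 fold change, knockout over wild type (vertical axis), of the 84 tested genes by their distance in Mb to the nearer end of the Argonaute cluster (horizontal axis, dashed line at the cluster), at day 7 (upper panel) and day 14 (lower panel). Filled symbols are genes with an edgeR adjusted p under 0.05. The called genes lie 2.61 to 3.45 Mb from the cluster at day 7, and Tmem35b at 0.59 Mb is the nearest at day 14. Dcdc2b, with 0 knockout reads at day 14, is drawn at its fitted value, which is no bound.

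With all libraries, edgeR called none of the 12 tested genes nearest to the deleted cluster at either day. Below the cluster, Adprhl2, which removes ADP-ribose from proteins and lies 0.01 Mb away, had means of 130.1 and 123 CPM in knockout and wild type at day 7 (log2 fold change 0.09 ± 0.16) and of 149.9 and 138 CPM at day 14 (0.12 ± 0.19). The next tested gene, Trappc3, a subunit of a vesicle tethering complex, was at 0.21 ± 0.17 and 0.13 ± 0.19. Map7d1, a microtubule-associated protein gene, was at -0.66 ± 0.33 and -0.60 ± 0.38, and Thrap3, a splicing and transcription cofactor gene, at -0.59 ± 0.24 and -0.58 ± 0.27. Sh3d21 had -0.27 ± 0.43 and 1.37 ± 0.49, and Eva1b 0.76 ± 0.22 and 0.42 ± 0.25. Above the cluster, Clspn, which encodes the replication checkpoint protein claspin and lies 23.5 kb away, had 0.258, 0.372, 0.313 and 2.39 CPM in the knockout libraries of day 7, against 0.223, 0.228, 0.0958 and 0.0418 CPM in wild type. The groups did not overlap, and knockout library 4 was far above the other 3 (2.40 ± 1.06, edgeR adjusted p = 0.195). At day 14 Clspn had 6.41, 2.70 and 8.54 CPM in knockout against 0.297, 0.468 and 6.15 CPM in wild type, where the third library lay within the knockout range (1.34 ± 1.00, edgeR adjusted p = 0.447). Without that library it was 3.92 ± 0.98 and was called (edgeR adjusted p = 0.0163), 1 of these 12 genes to be so. DESeq2 called Eva1b of the 12 at day 7. 5730409E04Rik was at -0.13 ± 0.42 and 0.39 ± 0.47, Psmb2 at 0.63 ± 0.24 and 0.57 ± 0.27, and Ncdn at -0.76 ± 0.33 and -0.75 ± 0.38. Beyond them, AU040320 had -0.90 ± 0.33 and -0.74 ± 0.38, and Zmym4 -1.37 ± 0.53 and -1.32 ± 0.62. Over these 12 genes the edgeR adjusted p ran from 0.154 to 0.874 at day 7 and from 0.140 to 0.748 at day 14.

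Several of the genes overlap a neighbour or have a copy elsewhere. Of the 93, 28 overlap another coding gene by their whole spans, introns and untranslated parts included. By the names of the deposited tables the counts are of coding sequence, and whether an overlap holds counted bases was not tested. Reads in such bases could not be assigned to a strand, as the sources used here do not say whether counting used strand. Cap1 and Ppt1, a gene for a lysosomal thioesterase, meet tail to tail on opposite strands. Ppt1 had a log2 fold change of 0.39 ± 0.28 at day 7 and -0.06 ± 0.32 at day 14 (edgeR adjusted p = 0.406 and 0.939), unlike Cap1. Zbtb8a and Zbtb8os, which encodes the archease cofactor of the transfer RNA ligase, overlap in the same way. Zbtb8os had 4.69, 3.78, 6.77 and 6.46 CPM in the knockout libraries of day 7 and 2.14, 2.47, 1.92 and 2.09 CPM in wild type. It stood higher in knockout where Zbtb8a stood lower, without overlap at either day (1.33 ± 0.35 and 1.25 ± 0.41, edgeR adjusted p = 0.154 and 0.115), and it was called at day 14 without the third wild-type library (1.87 ± 0.37, edgeR adjusted p = 0.00577). It has a pseudogene copy, Gm8539, at 98.8% identity. Tmem234 overlaps Ccdc28b, Iqcc and Dcdc2b on the other strand, and whether this affects the low counts of Dcdc2b was not tested. Tmem35b overlaps Zmym6 on the same strand. In all, 6 genes had a copy elsewhere of at least 95% identity over at least 50% of their coding length, namely Pabpc4, Akirin1, Ndufs5, Ptp4a2, Thrap3 and Zbtb8os. With these left out, a choice made after the data were seen, 2 genes were called at day 7 and 5 at day 14. Of all genes tested, 0.0949% and 1.42% were called.

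The comparisons at day 7 and day 14 share no library, so their values can be set side by side. The labels do not say whether the days share mice or cultures, so the days may not be independent. Both days also moved with coding length (given below), and the shares and correlations here keep that trend. Of the 84 tested genes, 65 had the same sign at both days (77.4%), against 70.7% of all genes. Pearson's r of the log2 fold changes over the 84 genes was 0.676 and Spearman's rho 0.715, against 0.386 and 0.493 over all genes, a description across genes that are not independent of each other. The genotypes did not overlap, in the same direction at both days, for 8 of the 84 (9.52%, against 3.80% of all genes). Higher in knockout at both days were Cap1, Mycbp, Fhl3, Zbtb8os, Tmem234 and Ccdc28b, and lower were Ndufs5 and Dcdc2b. Mycbp, whose product binds MYC, had 4.52, 5.03, 5.80 and 7.30 CPM in knockout and 2.98, 3.32, 2.94 and 3.76 CPM in wild type at day 7. By day 14 it had 6.00, 4.38 and 7.72 CPM in knockout and 3.90, 2.40 and 3.71 CPM in wild type. These differences of 0.80 ± 0.27 and 0.85 ± 0.31 missed the threshold (edgeR adjusted p = 0.154 and 0.147), and once each library's trend over GC content and coding length was taken out the second was -0.02. Fhl3, a LIM domain gene, lay at 1.11 to 2.26 CPM in knockout and 0.358 to 0.894 CPM in wild type at day 7, and at 2.66 to 3.77 against 1.05 to 2.07 CPM at day 14 (edgeR adjusted p = 0.154 and 0.187).

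**Figure D4:**
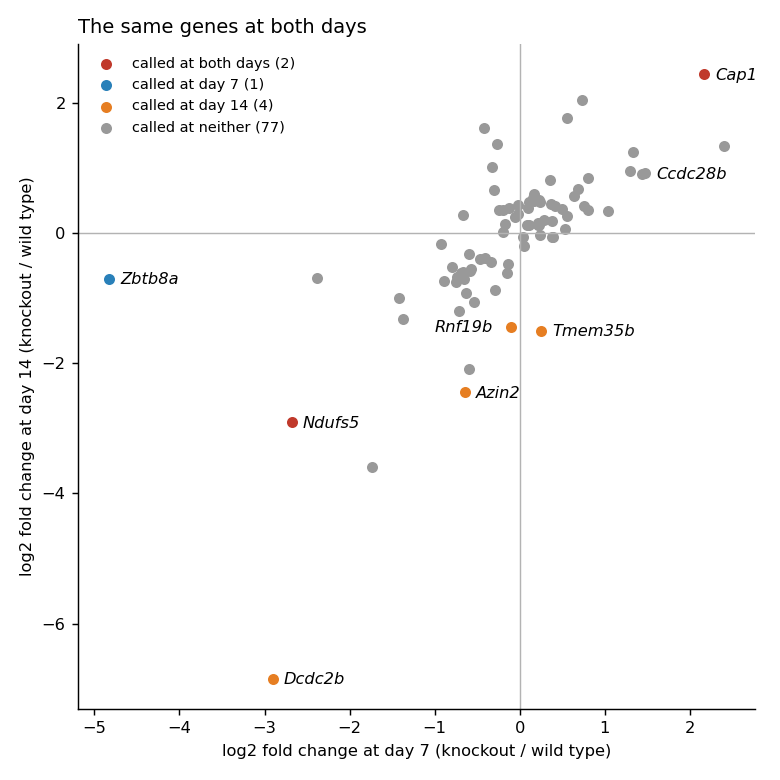
Log2 fold change, knockout over wild type, at day 7 (horizontal axis) and at day 14 (vertical axis), 1 point for each of the 84 tested genes, coloured by the day at which edgeR called it. Cap1 and Ndufs5 were called at both days, Zbtb8a at day 7 and 4 genes at day 14, of which Dcdc2b (0 knockout reads at day 14) is drawn at its fitted value.

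The change in the genotype difference from day 7 to day 14 was tested as an interaction. Zbtb8a was the 1 gene of 84 called (1.19%, against 0.0863% of all genes), with an interaction of 4.13 ± 0.68 on the log2 scale (edgeR adjusted p = 0.0370). In knockout cells Zbtb8a rose by 4.26 ± 0.51 at day 14 over day 7 (edgeR adjusted p = 0.00013), and in wild-type cells the change was 0.14 ± 0.43 (edgeR adjusted p = 0.857). The interaction was not called with a run series term (3.99 ± 0.75, edgeR adjusted p = 0.157) nor in 11 of the 14 fits without 1 library (adjusted p up to 0.112). It was called without knockout library 4 of day 7 (4.74 ± 0.62, edgeR adjusted p = 0.0233) and without the third wild-type library of day 14 (4.36 ± 0.73, edgeR adjusted p = 0.0104). Tmem35b (-1.75 ± 0.40), Rnf19b (-1.33 ± 0.33), Azin2 (-1.80 ± 0.61) and Dcdc2b were called at day 14 and not at day 7, but their interactions did not pass (edgeR adjusted p = 0.133, 0.177, 0.379 and 0.340). Tmem35b and Rnf19b passed by DESeq2, with the GC and length trend removed, and without the third wild-type library of day 14.

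Over time, 12 of the 84 genes were called between day 14 and day 7 in knockout cells (14.3%, against 15.5% of all genes), 9 higher and 3 lower at day 14 (10.5% and 4.92% of all genes). In wild-type cells 21 were called (25.0%, against 20.5%), 14 higher and 7 lower (13.2% and 7.33% of all genes). Azin2 rose in both genotypes, by 3.52 ± 0.45 in knockout and 5.32 ± 0.47 in wild type on the log2 scale (edgeR adjusted p = 0.000187 and 7.49e-06). Rnf19b rose by 1.09 ± 0.23 and 2.43 ± 0.23 (edgeR adjusted p = 0.0047 and 1.33e-05). Cdca8 rose by 4.30 ± 0.62 and 2.97 ± 0.59 (edgeR adjusted p = 0.000431 and 0.00277), and its knockout library 4 of day 7, at 12.1 CPM, was far above the other 3 at 2.64 to 2.85 CPM. Mfsd2a, a lipid transporter gene, rose by 2.64 ± 0.63 and 3.34 ± 0.65, and Yars, the tyrosyl transfer RNA synthetase gene, by 1.05 ± 0.17 and 0.67 ± 0.17. Kpna6 and C77080 also rose in both genotypes, and Macf1, which links actin to microtubules, and Thrap3 fell in both. C77080 had 1 read over the knockout libraries of day 7 and 52 over those of day 14, so the size of its rise is uncertain. In knockout the calls of Kpna6 (edgeR adjusted p = 0.0447) and Macf1 (edgeR adjusted p = 0.0496) were close to the threshold and were lost in 5 and 6 of the 7 fits without 1 library. Tmem35b changed by -0.17 ± 0.28 in knockout, which did not pass (edgeR adjusted p = 0.762), and rose by 1.58 ± 0.28 in wild type (edgeR adjusted p = 0.00107). Ppt1, Mycl, Fhl3, Clspn and Dlgap3 were likewise called higher and Bmp8a, Sfpq, Khdrbs1 and Ptp4a2 lower in wild type and not in knockout, and the interactions of these genes did not pass (edgeR adjusted p from 0.133 to 0.997). The wild-type calls of Ppt1 and Clspn were lost without the third library of day 14, at 0.30 ± 0.20 and 1.31 ± 0.97 (edgeR adjusted p = 0.257 and 0.308), against 0.94 and 3.90 with it. Those of Bmp8a and Kpna6 were lost too, at -2.32 ± 0.87 and 0.61 ± 0.24 (edgeR adjusted p = 0.0574 and 0.0652). Of the 7 fits without 1 library, the wild-type calls of Fhl3, Dlgap3 and Ptp4a2 were each lost in 5 and that of Kpna6 in 6. Dcdc2b fell in knockout, with 0 reads at day 14 against 10 at day 7, at least 3.02-fold lower with the same 3 counts in place of 0 (edgeR adjusted p = 0.0191). All knockout libraries of day 7 belong to one series of run identifiers and all those of day 14 to the other, so run series and day cannot be told apart within knockout. With a run series term, which the wild-type libraries determine, 4 of the 12 were called, Cdca8, Azin2, Yars and Zbtb8a (4.76%, against 3.19% of all genes). Without the second or without the third knockout library of day 14, 7 genes were called (8.24% and 8.14%, against 9.39% and 9.01% of all genes).

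By function, the calls with all libraries were spread thinly over the lists, which were chosen with results of these data known. Over all genes tested, 0.0949% were called at day 7 and 1.42% at day 14. Of 12 tested genes for RNA processing and RNA binding, 0 were called by edgeR at either day. Their median log2 fold changes were 0.08 at day 7 and 0.36 at day 14, against -0.01 and 0.01 over all genes. At day 7, 2 of the 12 were higher without overlap (Zbtb8os and Lsm10) and 2 lower, among them Sfpq, a splicing factor gene. Over all genes tested, 9.27% were higher and 12.9% lower without overlap at that day. Of 14 tested genes for chromatin and transcription factors, Zbtb8a was called lower at day 7 and 0 were called at day 14 (medians -0.24 and -0.05). Of 7 for T cell and immune signalling, 0 were called at either day (medians -0.14 and 0.02). Lck, the kinase that starts T cell receptor signalling, had means of 2561 and 2217 CPM in knockout and wild type at day 7, and 2649 and 2376 CPM at day 14. Of 6 for the cytoskeleton and adhesion, Cap1 was called higher at both days (medians -0.60 and -0.20). Of 5 for mitochondria, lysosome, lipid and nucleotide metabolism, Ndufs5 was called lower at both days (medians 0.09 and -0.06). The 6 tested translation and transfer RNA genes (medians 0.30 and 0.34), 6 trafficking and transport genes (0.30 and 0.03) and 4 genes listed under cell division (0.68 and 0.96) held 0 calls at either day. Of those last 4, Cdca8 and Clspn act in division, while Txlna and Psmb2 are known for vesicle traffic and protein breakdown. Without the third wild-type library of day 14, edgeR called more of the listed genes at that day, where 22.5% of all genes were called. These were Cdca8 and Clspn (cell division), Sf3a3, Khdrbs1 and Zbtb8os (RNA processing), and Rragc and Laptm5 (T cell signalling). Gnl2 and Mrps15 (translation), Akirin1, Phc2 and Zfp362 (chromatin and transcription) and Bsdc1 (cytoskeleton) were called too. DESeq2 called 12 of 75 genes at day 7 (16.0%, against 5.02% of all genes), where it gave the others no adjusted p.

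By level, Laptm5 ranked 5 and Lck 45 among the 11591 genes tested. Per coding length, Laptm5, a lysosomal protein gene of blood cells that limits receptor levels on T cells, had a mean of 2073 RPKM over all libraries, ranging from 1529 to 2928. Lck followed at 655 RPKM (543 to 792), then Psmb2 at 229 RPKM and Rbbp4, a histone chaperone gene, at 196 RPKM. The median over the 84 tested genes was 11.3 RPKM, against 6.55 RPKM over all genes tested. Of the 93 genes, 46 were above 10 RPKM and 24 under 1 RPKM. On the same scale Cap1 averaged 84.6 RPKM in knockout and 19.1 RPKM in wild type at day 7, and 117 and 21.3 RPKM at day 14. Zbtb8a had a mean of 1.40 RPKM over all libraries, Ndufs5 2.96, Ccdc28b 12.2, Azin2 5.08, Rnf19b 52.4, Tmem35b 7.37 and Dcdc2b 0.160 RPKM.

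The genotype difference moved with coding length, in these genes as in the whole table. Spearman's rho between log2 fold change and coding length was -0.517 over the 84 genes and -0.632 over all 11591 at day 7, and -0.241 and -0.444 at day 14. The 28 shortest genes (up to 954 bases) had a median log2 fold change of 0.31 and the 28 longest (from 1525 bases) one of -0.44 at day 7, and 0.31 and -0.42 at day 14. Genes higher without overlap at day 7 had a median coding length of 651 bases and those lower 1611 bases. With each library's trend over GC content and coding length removed, the medians at day 7 were 0.02 for the shortest and -0.02 for the longest genes. In that fit 4 genes were called at day 7, Cap1, Ndufs5, Zbtb8a and Ccdc28b, and 7 at day 14, Cap1, Ndufs5, Tmem35b, Azin2, Rnf19b, Dcdc2b and Ccdc28b (4.76% and 8.33%, against 0.130% and 4.68% of all genes). All genes called without that correction at either day were among them.

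**Figure D5:**
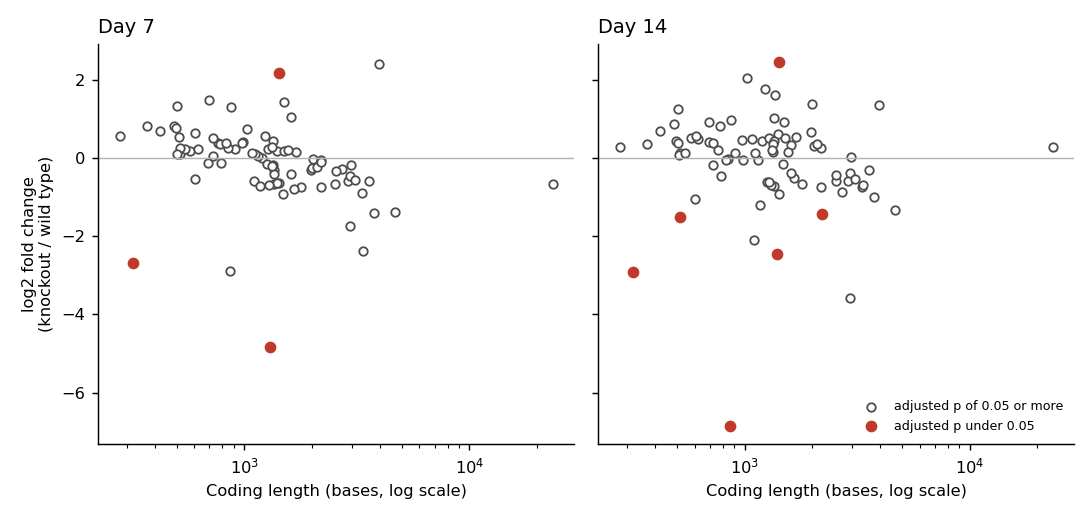
Log2 fold change, knockout over wild type (vertical axis), of the 84 tested genes by coding length in bases (horizontal axis, log scale) at day 7 (left) and day 14 (right), with genes of an edgeR adjusted p under 0.05 filled and Dcdc2b at day 14 drawn at its fitted value. Short genes tend to lie above 0 and long genes below it, with a Spearman's rho of -0.517 at day 7 and -0.241 at day 14.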

How the data were processed

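The submitters' processing notes name the aligner GSNAP (2013-11-01) and the genome build GRCm38. Per the file headers, each deposited table gives 1 library's read count, RPKM and length for every gene. The counting tool, its annotation and its use of strand are not given in sources used here. Groups and replicate numbers came from the titles. Coordinates and symbols came from GENCODE vM21 (22457 of 22598 identifiers matched), and promoters from RefSeq, GRCm38.p6.

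From the counts, edgeR 4.0.16 (R 4.3.3, limma 3.58.1) gave the tests, after its filterByExpr filter and TMM scaling, as robust quasi-likelihood fits with 1 mean per group over all 14 libraries, since 3 or 4 libraries leave few degrees of freedom. The common biological coefficient of variation was 0.354. The Benjamini-Hochberg adjustment ran over all 11591 genes tested, with a threshold of 0.05. RPKM values were used for levels only. Near-identical copies were sought with blastn 2.17.0. Bounds against 0 reads used 3 counts over the group and cover counting error only. The fits were tested on simulated data.

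Genes were named if they were among Cap1, Zbtb8a, Ndufs5 and Ccdc28b, passed the threshold in any comparison, were among the 6 tested genes nearest to the cluster on each side, or were among the 6 with the highest or lowest log2 fold change at a day with a mean of at least 5 CPM. Up to 4 genes of each function list were added. The genes of the set, the lists and this rule were chosen with earlier results of these data known. Genes named outside the rule were chosen after their values were seen, namely those that the overlap with a neighbour, the overlap between libraries, the lists or the levels brought in. Alternatives were other scaling factors, count filters, DESeq2 1.42.0, limma-voom, fits of the compared libraries alone, a replicate block, a run series term, an offset for GC content and coding length, and leaving out each library. The run series has 2 levels, inferred from lane numbers and identifiers in the names of the deposited tables. A new series was taken to start where the lane numbers began again as the identifiers rose. What the series stand for is not stated in the sources used here. All knockout libraries of day 7, wild-type libraries 2 to 4 of day 7 and wild-type library 2 of day 14 share one, and the others share the second. Day 0 and naive cells, which the series text mentions, are not analysed here, and where that text also speaks of 15 days, the samples' own labels give 14. Some genes that the rule names are counted in the totals but not reported here by name.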

Additional observations from a re-analysis of the deposited data

Results flagged for a closer look

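Among the day 7 groups of 4 libraries, 88 sets of values of the named genes were looked at for a library far from the rest, by its gap to the nearest library as a share of the group's range (above Dixon's 95% critical value). Chance gives about 1 in 20 groups, and 11 were found. Knockout library 4 was the highest of its group for Cdca8 (gap 0.977, 12.1 against 2.64 to 2.85 CPM), Clspn (0.947, 2.39 against 0.258 to 0.372 CPM), Zbtb8a (0.923, 0.487 against 0.129 to 0.157 CPM), Tmem35b (0.873, 10.2 against 5.95 to 6.48 CPM) and Kpna6 (0.853, 13.2 against 10.57 to 10.96 CPM). Knockout library 1 was the highest for Yars (0.835, 151 against 128 to 132 CPM). It was also the 1 library of its group with a read for Mycl and for C77080 (gap 1.0 in both). Of the wild-type libraries, the second was the lowest for Lsm10 (0.984, 25.8 against 31.3 CPM in each of the others) and Adprhl2 (0.896, 108 against 126 to 129 CPM). The third was the highest for Tmem35b (0.835, 8.30 against 5.07 to 5.60 CPM).

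The genotype difference of Zbtb8a at day 14 minus that at day 7 was 4.13 on the log2 scale, which passed edgeR's interaction test (adjusted p = 0.0370). That call was lost in 11 of the 14 fits without 1 library and with a run series term (edgeR adjusted p = 0.157).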

How the results depend on the processing

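Of the 43 called values of named genes, 582 of 723 values under the alternatives kept the call and its direction, 141 lost the call and 0 reversed. Of 45 values that were not called, 726 of 758 stayed so, 23 gained a call and 9 reversed. The calls of Cap1 and Zbtb8a at day 7 and of Dcdc2b at day 14 held in every alternative that tested them. At day 14, the call of Tmem35b was lost in 5 alternatives and those of Azin2 and Rnf19b in 3 each, and Cap1 and Ndufs5 lost theirs only where the fit held the libraries of that day alone. The number of members called at day 7 was 3, against 12 with DESeq2 and 0 within 2 Mb of the cluster, and 2 to 3 without 1 library. At day 14 it was 6, against 13 with DESeq2, 0 with only the libraries compared (fewer samples), 1 within 2 Mb, and 3 to 22 without 1 library. The 22 came without the third wild-type library (25.9%, against 22.5% of all genes). The 3 came without the second wild-type library (3.53%, against 0.45%) or the third knockout library (3.49%, against 0.357%). For the interaction the number of members called was 1 (1.19%, against 0.0863% of all genes). It was 3 with DESeq2 (3.57%, against 1.41%) and 3 with GC and length trends taken out (3.57%, against 0.675%). With a run series term it was 0, and without 1 library 0 to 3. The 3 of those fits came without the third wild-type library of day 14 (3.53%, against 3.23% of all genes). For knockout over time the number was 12, against 4 with a run series term and 7 to 18 without 1 library. The 18 came without the first knockout library of day 14 (20.9%, against 19.8% of all genes). DESeq2 called 512 genes of the whole table at day 7 and 993 at day 14, and the fit with GC and length trends taken out 541 at day 14. The median log2 fold change of the tested members at day 7 was -0.02, against 0.0806 with upper-quartile scaling and 0.0594 for genes with a mean of at least 1 CPM.

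With GC and length trends taken out, Mycbp was at -0.0194 at day 14 and Trappc3 at -0.23 at day 7 and -0.32 at day 14. Without 1 library, values ran from -0.0129 to 0.23 for Trappc3 and from -0.0295 to 0.23 for Adprhl2 at day 14, from -0.25 to 0.0923 at day 7 and -0.17 to 0.78 at day 14 for 5730409E04Rik, and from -1.43 to 0.0525 for Zmym6 at day 14. The cause was not tested. The main fit did not pair samples by replicate number. Same-numbered libraries of the genotypes correlated between -0.116 and 0.417 at day 7 and between 0.049 and 0.350 at day 14. For libraries of different numbers the range was -0.405 to 0.445 at day 7 and -0.4 to 0.226 at day 14. So few pairs cannot decide whether the numbers pair the samples. With the replicate number as a block, the members called were 3 at day 7, 7 at day 14, 1 for the interaction, 9 for knockout over time and 18 for wild type over time (21 without it). In the same order, 0.129%, 2.04%, 0.0604%, 13.9% and 19.2% of all genes were called in that fit. Genes with few reads, such as Dcdc2b, are limited by depth.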
